A study of Saccharomyces cerevisiae with 12 samples.

Results

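PRY1, PRY2 and PRY3 are the 3 genes of budding yeast whose names begin with PRY, for pathogen related in yeast, and they were taken by name from the 7126 genes listed for every library. The family was chosen by its response to the YOX1 vector, which was known beforehand. PRY1 had one of the largest decreases at 2 h, PRY3 stood in a short list that the study chose partly on these libraries, and PRY2 came in by name. The comparison of the vectors at 2 h and 4 h is therefore given as a description, with no test. RNA-seq was run on 12 libraries of Saccharomyces cerevisiae strain BY4741, a wild-type MATa strain, grown in raffinose medium lacking uracil, with the cells carrying either pBY011-YOX1, in which the galactose-inducible GAL1-10 promoter drives YOX1, or the empty vector pBY011. The 6 groups were YOX1 vector and control vector cells at 0 h, untreated, and YOX1 vector and control vector cells at 2 h and at 4 h after 2% galactose and 200 mM hydroxyurea (HU), which blocks ribonucleotide reductase, were added together. Each group had 2 libraries, which the study describes as independent biological replicates. Galactose, HU and time in culture cannot be told apart in a comparison with 0 h, since all cells at 2 h and 4 h, the control vector cells included, received both agents.

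Pry proteins belong to the CAP superfamily, named after cysteine-rich secretory proteins, antigen 5 and the plant PR-1 proteins. In yeast, Pry1 and Pry2 are secreted glycoproteins that bind sterols and are needed for the export of acetylated sterols, Pry1 also binds fatty acids, and Pry3 is held at the cell wall. Cells add the acetyl group to sterols with Atf2 and take it off with the deacetylase Say1. Yox1 is a homeodomain repressor that acts together with the MADS-box factor Mcm1, mainly on genes expressed between mitosis and G1.

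PRY1 (YJL079C) lies on chromosome X at 289875 to 290774 on the minus strand, and PRY3 (YJL078C) lies at 291336 to 293981 on the same strand, in the sacCer3 coordinates of the deposited tables. Both are single-exon genes in tandem, with PRY3 upstream, and the 561 bases from 290775 to 291335 separate the PRY3 stop codon from the PRY1 start codon. PRY2 (YKR013W) lies on chromosome XI at 463959 to 464948 on the plus strand, also as a single exon. The encoded proteins have 299 residues for PRY1, 329 for PRY2 and 881 for PRY3. PRY1 and PRY2 were 59.1% identical over 296 aligned residues. PRY3 matched both only near its start, where residues 15 to 161 were 66.7% identical to residues 152 to 298 of PRY1 and 67.3% identical to residues 182 to 328 of PRY2. Serine and threonine, which carry sugars in secreted yeast proteins, made up 28.4% of residues in PRY1, 33.1% in PRY2 and 42.0% in PRY3.

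Reads of the 3 genes can be told apart. Each of the 851 stretches of 50 bases in PRY1, the 941 in PRY2 and the 2597 in PRY3 occurred at no other place in the R64 genome, 50 bases being the read length, and the longest run of identical bases between any pair of members was 26, in PRY1 and PRY2. PRY2 shares 158 bases with YKR012C, a gene annotated on the opposite strand at 463739 to 464116 and listed at 1.54 to 4.32 FPKM (fragments scaled by transcript length in kilobases and by the total mapped in that library). The libraries do not keep the strand, so reads from those bases cannot be assigned to one of the genes with certainty. No other member overlapped a listed gene.

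The DNA upstream of the members is shown because YOX1 encodes a DNA-binding repressor and because PRY1 has only the short gap to PRY3 before it. Sequences were read from the R64 reference on the strand of the gene, with positions counted back from the start codon, and capitals mark the motif letters. The first stretch holds the homeodomain core TAATTA and, 5 bases on, a 10-base match to the Mcm1 core consensus, and lies at chrX:291235-291263, minus strand, from position -489 to -461. The other stretches hold TGAAACA, the pheromone response element bound by Ste12. It stands in 2 copies of opposite orientation before PRY3 at chrX:294132-294160, minus strand (-179 to -151), and as a single copy before PRY2 at chrXI:463781-463809, plus strand (-178 to -150). Both stretches touch other listed genes. That of PRY2 lies within YKR012C, and that of PRY3 runs into YJL077W-B, listed at 294047 to 294145.
PRY1: acagTAATTAttattCCTAAAGAGGtaat
PRY3: ccgaTGAAACAgttctcaTGTTTCAactc
PRY2: tgtaatgttttTGAAACAtagacgtcgtt

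On both strands of the 300 bases before the start codon, TAATTA was found before none of the members and before 16.2% of 6001 genes. The strict Mcm1 box, which is CC, then 6 letters of A or T, then GG, was likewise before none of them and before 2.47% of all genes. TGAAACA was present before PRY2 and PRY3 and before 7.20% of all genes. A window of 561 bases, the length of the gap before PRY1, was added after the first search had been seen. In it TAATTA was present before PRY1 only among the members, against 26.1% of 6000 genes. The looser Mcm1 core consensus was also added at that point. It was present before PRY1 and PRY2 and before 15.4% of all genes, while TAATTA within 10 bases of it was present before PRY1 and in 16 windows in all, or 0.267%. The PRY1 match lies 76 bases beyond the PRY3 stop codon. A match is a description of the letters only, and binding was not measured here.

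**Figure D1:**
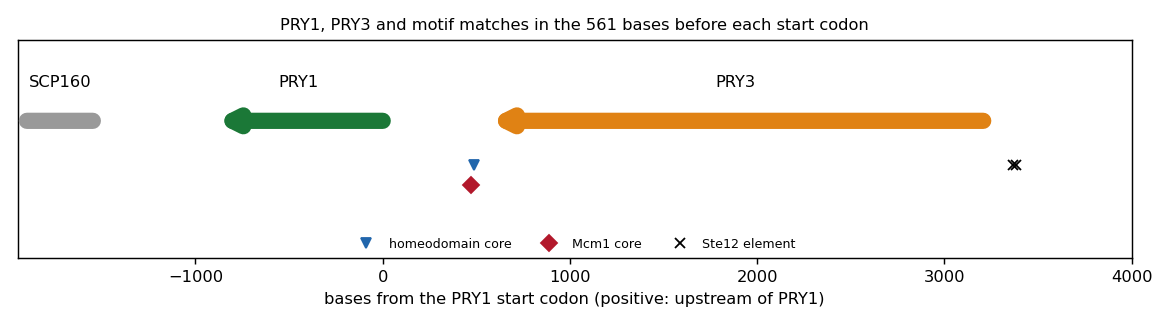
Map of PRY1 and PRY3 with the matches found in the 561 bases before each start codon. The horizontal axis is the distance in bases from the PRY1 start codon, arrows point in the direction of transcription and the line for SCP160, the next gene beyond PRY1, is cut off at the edge. The homeodomain core and the Mcm1 core sit beside each other in the gap between the genes, near its PRY3 end, and the pair of pheromone response elements sits before PRY3.

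The libraries held an approximate depth of 11900000 to 21200000 fragments, as computed from the interval that Cufflinks gives with each estimate, and 234 to 339 genes were listed at 0. All 3 members had a completed estimate above 0 in all 12 libraries. The interval of single estimates reached 2.94 to 10.9% on either side for PRY1, 4.88 to 6.23% for PRY2 and 4.30 to 8.36% for PRY3. It implied 335 to 4625 fragments for PRY1 and 573 to 2168 for PRY3, which covers counting error only. For PRY2 the implied number was 0.273 to 0.535 of what its FPKM and the depth give, so its support is not known. YOX1 itself checked the labels. It was listed at 91.3 and 90.9 FPKM at 0 h, 3862 and 3312 FPKM at 2 h, and 2599 and 2458 FPKM at 4 h in YOX1 vector cells, against 30.8 and 29.8, 30.9 and 37.5, and 40.8 and 40.7 FPKM in control vector cells. Its log2 difference of 1.52 ± 0.10 (SE) at 0 h was called (limma, adjusted p = 0.00209), so that YOX1 RNA was already higher with the YOX1 vector before galactose. Of the MATa-specific genes MFA1, MFA2, STE2, STE6 and BAR1 all were detected in every library, at 15.8 to 7224 FPKM, while the alpha-specific genes MF(ALPHA)1, MF(ALPHA)2, STE3 and SAG1 were at 1.17 to 20.6 FPKM. LEU2, deleted in BY4741, was listed at 0 in all libraries, MET17, also deleted, at no more than 0.391 FPKM, HIS3, of which the strain lacks only a part and which overlaps another listed gene, at 41.1 to 94.0 FPKM, and URA3, which the medium requires, at 275 to 449 FPKM.

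PRY1 and PRY2 were of like abundance before treatment and PRY3 was well below both. At 0 h the FPKM of PRY1 were 275 and 361 in YOX1 vector cells, against 363 and 382 in control vector cells. PRY2 had 280 and 368 FPKM in YOX1 vector cells, against 377 and 360 in control vector cells. PRY3 had 38.7 and 48.5 FPKM in YOX1 vector cells, against 51.6 and 50.6 in control vector cells. The replicate 1 library of the YOX1 vector was the lowest of the 4 untreated libraries for every member, and replicate 2 of that vector lay near the control libraries. PRY1 and PRY2 did not differ beyond the spread between untreated libraries, with PRY2 at 1.02 of PRY1 in both YOX1 vector libraries, against 1.04 and 0.942 in the control vector libraries. PRY1 exceeded PRY3 by 7.11-fold and 7.44-fold in YOX1 vector cells, against 7.03-fold and 7.55-fold in control vector cells.

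The vectors were compared at 0 h by a test, since this comparison took no part in the choice of the genes. On scaled values (each library divided by its median ratio to the others), PRY1 averaged 304 ± 65.8 FPKM with the YOX1 vector and 365 ± 9.36 with the control vector (SD, n = 2 each). PRY2 averaged 309.9 ± 67.9 FPKM with the YOX1 vector and 361 ± 16.2 with the control vector. PRY3 averaged 41.7 ± 7.72 FPKM with the YOX1 vector and 50.1 ± 1.24 with the control vector. The log2 difference, YOX1 vector minus control vector, of log2(scaled FPKM + 1) was -0.28 ± 0.15 (SE) for PRY1, -0.24 ± 0.14 for PRY2 and -0.27 ± 0.16 for PRY3. No member was called in a limma model over 6887 genes (adjusted p = 0.671, 0.677 and 0.671 in that order), and 0.029% of all genes were called in either direction. The 95% intervals, not adjusted for the number of genes, were -0.64 to 0.08 for PRY1, -0.57 to 0.09 for PRY2 and -0.63 to 0.09 for PRY3. A difference within these ranges is therefore not excluded, and the intervals do not give the smallest difference that could have been called. The scaled libraries of PRY1 and PRY3 did not overlap and those with the YOX1 vector were lower, which held for 18.7% of all genes, and the libraries of PRY2 overlapped. The unadjusted p was 0.112 for PRY1, 0.137 for PRY2 and 0.120 for PRY3, and without YOX1 vector 0 h replicate 1 or replicate 2 the log2 differences of the members spanned -0.50 to -0.01, none of them called.

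At 2 h the genes separated. PRY1 was listed at 57.7 and 62.5 FPKM in YOX1 vector cells, against 256 and 278 FPKM in control vector cells. PRY2 was listed at 264 and 293 FPKM in YOX1 vector cells, against 240 and 237 FPKM in control vector cells. PRY3 was listed at 22.7 and 27.0 FPKM in YOX1 vector cells, against 33.1 and 38.6 FPKM in control vector cells. PRY1 and PRY3 were thus lower and PRY2 higher in both YOX1 vector libraries than in either control vector library. As a description of the contrast that chose the members, the log2 difference was -2.17 ± 0.15 (SE) for PRY1, a 4.50-fold lower level, 0.19 ± 0.14 for PRY2 and -0.55 ± 0.16 for PRY3. Among all genes, libraries that did not overlap were lower for 24.1% and higher for 21.9%. A difference lower than that of PRY1 was found in 0.944% of genes, and lower than that of PRY3 in 3.75%. The PRY2 difference exceeded that of 89.6% of genes and was close to its own standard error.

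At 4 h PRY1 and PRY2 stood further apart. PRY1 was listed at 33.5 and 36.8 FPKM in YOX1 vector cells, against 249 and 313 FPKM in control vector cells. PRY2 was listed at 221 and 224 FPKM in YOX1 vector cells, against 138 and 164 FPKM in control vector cells. PRY3 was listed at 16.6 and 15.8 FPKM in YOX1 vector cells, against 21.2 and 26.8 FPKM in control vector cells. No library of one vector reached into the range of the other vector for any of the 3 genes, with PRY1 and PRY3 lower and PRY2 higher with the YOX1 vector. This lack of overlap was found for 24.2% of all genes in the lower direction and for 24.3% in the higher one. The log2 difference was -3.00 ± 0.15 for PRY1, which is 8.0-fold, 0.52 ± 0.14 for PRY2, which is 1.43-fold, and -0.57 ± 0.16 for PRY3, which is 1.49-fold. Only 14 genes, or 0.203% of those tested, had a lower difference than PRY1, and 3.85% had a lower one than PRY3, while PRY2 exceeded 95.6%. The control libraries at 4 h were the less even ones, and without replicate 2 of that group the differences were -2.82 for PRY1 and -0.39 for PRY3, against -3.18 and -0.75 without replicate 1.

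**Figure D2:**
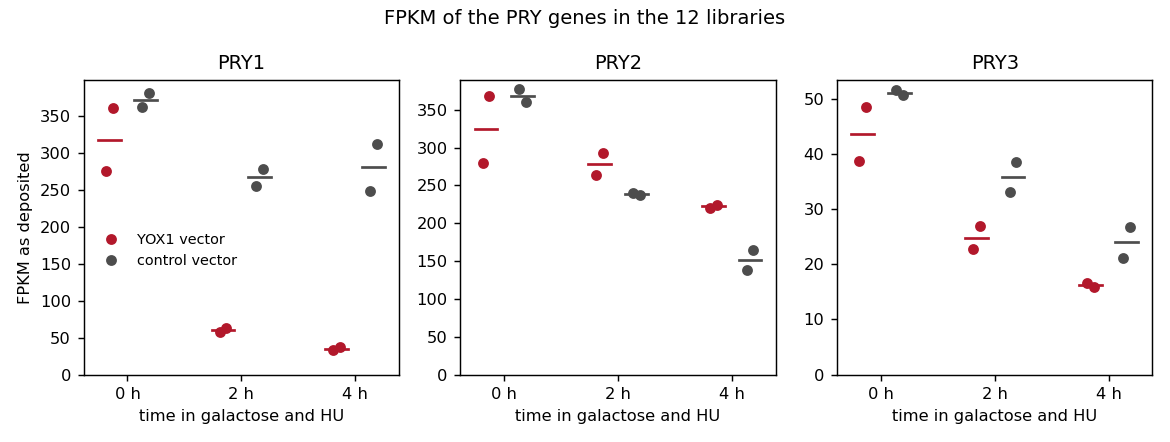
FPKM of PRY1, PRY2 and PRY3 as deposited in each of the 12 libraries, by time in galactose and HU. Points are single libraries, YOX1 vector left of control vector, horizontal lines are the means of 2 libraries, and the vertical axes start at 0 and differ between panels. PRY1 sits at 33.5 to 62.5 FPKM in treated YOX1 vector cells and at 249 to 313 in treated control vector cells, while PRY2 lies higher with the YOX1 vector at both treated times.

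The time course within a vector compares each treated time with 0 h. The control vector libraries at 2 h and 4 h also entered the comparison that chose PRY1 and PRY3, so the tests of these genes in control vector cells are not independent of the choice. In control vector cells PRY1 had 365 ± 9.36, 266 ± 14.0 and 299 ± 52.4 scaled FPKM (SD, n = 2) at 0, 2 and 4 h. It was not called at any time, with log2 changes of -0.46 ± 0.15 (SE, limma, adjusted p = 0.0505) at 2 h minus 0 h, -0.30 ± 0.15 (adjusted p = 0.147) at 4 h minus 0 h and 0.16 ± 0.15 (adjusted p = 0.515) at 4 h minus 2 h. The first of these lies at the threshold and was called without YOX1 vector 0 h replicate 1 or 2 or control vector 4 h replicate 1 or 2 (adjusted p = 0.0180 to 0.0362). PRY1 at 4 h minus 0 h ran from -0.48 to -0.12 with 1 library left out, called in none of these fits, and at 4 h minus 2 h it was -0.02 without control vector 4 h replicate 2. PRY1 was thus at 249 to 382 FPKM in every control vector library, and its call at 2 h depended on which libraries entered the fit.

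PRY2 and PRY3 fell in control vector cells. For PRY3 the adjusted p and calls below are not independent of its choice, which used the 2 h and 4 h libraries. PRY2 had 361 ± 16.2, 237 ± 4.04 and 161 ± 21.9 scaled FPKM at 0, 2 and 4 h. Its log2 change was -0.60 ± 0.14 at 2 h minus 0 h (limma, adjusted p = 0.0121), where 19.3% of all genes were called lower, and -1.17 ± 0.14 at 4 h minus 0 h (adjusted p = 0.000308), where 26.0% were. From the 4 h minus 2 h comparison came a further -0.56 ± 0.14 (adjusted p = 0.0312), with 8.61% of genes called lower. PRY3, at 50.1 ± 1.24, 35.7 ± 3.64 and 25.5 ± 4.60 scaled FPKM, changed by -0.48 ± 0.16 at 2 h minus 0 h (adjusted p = 0.0417) and by -0.96 ± 0.16 at 4 h minus 0 h (adjusted p = 0.00130), and had -0.47 ± 0.16 at 4 h minus 2 h (adjusted p = 0.0722). The calls at 4 h against 0 h stood whichever library was left out, with a highest adjusted p of 0.00361 for PRY2 and 0.0109 for PRY3. Those at 2 h did not. That of PRY2 was lost without control vector 0 h replicate 1 or control vector 2 h replicate 1 or 2 (adjusted p = 0.0502 to 0.0692). That of PRY3 was lost without either library of control vector 0 h or 2 h or of YOX1 vector 2 h or 4 h (adjusted p = 0.0523 to 0.197). The PRY2 call at 4 h minus 2 h was lost without either library of control vector 0 h or 2 h or of YOX1 vector 4 h, or without control vector 4 h replicate 1 (adjusted p = 0.0502 to 0.159). PRY3 at 4 h minus 2 h was called without YOX1 vector 0 h replicate 1 or 2 or control vector 4 h replicate 2 (adjusted p = 0.0466 to 0.0487).

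In YOX1 vector cells PRY1 had 304 ± 65.8, 58.3 ± 2.37 and 36.2 ± 1.95 scaled FPKM (SD, n = 2) at 0, 2 and 4 h. PRY1 and PRY3 were chosen by low values in these libraries at 2 h and 4 h, so their changes in these cells are given with no test. The log2 change of PRY1 was -2.35 ± 0.15 (SE) at 2 h minus 0 h, -3.02 ± 0.15 at 4 h minus 0 h and -0.67 ± 0.15 at 4 h minus 2 h. Among all genes 22.2%, 27.0% and 5.18% were called lower in these comparisons, in the same order.

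PRY2 had the smallest log2 changes of the 3 genes in YOX1 vector cells, at 309.9 ± 67.9, 270 ± 15.4 and 229 ± 0.778 scaled FPKM at 0, 2 and 4 h. Its log2 change was -0.18 ± 0.14 at 2 h minus 0 h (limma, adjusted p = 0.345), -0.42 ± 0.14 at 4 h minus 0 h (adjusted p = 0.0394) and -0.24 ± 0.14 at 4 h minus 2 h (adjusted p = 0.343), and the call at 4 h minus 0 h was lost in 9 of the 12 fits without 1 library, those without YOX1 vector 0 h replicate 1 and without control vector 4 h replicate 1 or 2 being the exceptions (adjusted p up to 0.198). The uneven 0 h libraries bear on PRY2 most. Without YOX1 vector 0 h replicate 1 its change at 2 h was -0.40 and called (adjusted p = 0.0291), and without replicate 2 it was 0.04. PRY3 in these cells had 41.7 ± 7.72, 24.1 ± 2.51 and 16.7 ± 0.807 scaled FPKM. Its log2 change was -0.76 ± 0.16 at 2 h minus 0 h, -1.26 ± 0.16 at 4 h minus 0 h and -0.50 ± 0.16 at 4 h minus 2 h.

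Direction among all genes depends on the scaling. With the scaling used here 50.9% of the genes called at 4 h minus 0 h in control vector cells were lower, against 65.1% without scaling, and the corresponding shares were 50.6% and 63.4% in YOX1 vector cells. At 4 h minus 2 h they were 47.2% and 75.6% in control vector cells and 47.1% and 74.0% in YOX1 vector cells. For the vectors at 4 h they were 69.2% and 52.8%. Without scaling the median of all genes stood at -0.11 at 4 h minus 0 h in control vector cells, and every member kept its direction in every comparison.

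The difference in vector effect between times puts the above into single values, again as a description. Relative to 0 h, the YOX1 vector effect on PRY1 was lower by -1.89 ± 0.22 (SE, log2) at 2 h and by -2.72 ± 0.22 at 4 h. For PRY2 it was higher by 0.42 ± 0.20 at 2 h and by 0.75 ± 0.20 at 4 h. For PRY3 it was -0.28 ± 0.22 at 2 h and -0.30 ± 0.22 at 4 h, values near their standard error, while the log2 difference of PRY3 at 0 h was -0.27. The PRY3 values were -0.46 and -0.49 without YOX1 vector 0 h replicate 1 and -0.09 and -0.12 without replicate 2. From 2 h to 4 h the effect moved by -0.83 ± 0.22 for PRY1, 0.33 ± 0.20 for PRY2 and -0.03 ± 0.22 for PRY3.

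**Figure D3:**
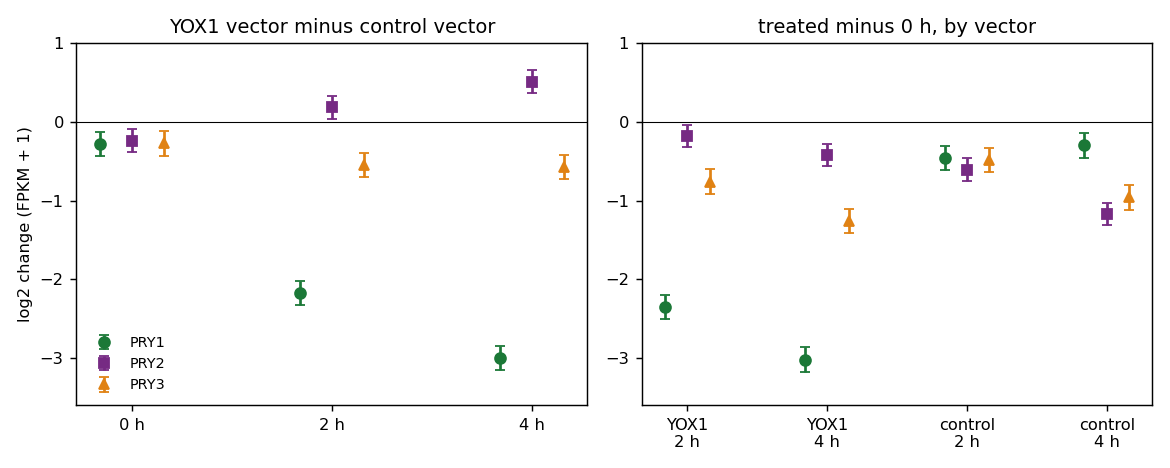
Log2 changes of PRY1, PRY2 and PRY3 on the log2(scaled FPKM + 1) scale, with standard errors from the limma model. The left panel gives the YOX1 vector minus the control vector at 0, 2 and 4 h, and the right panel gives 2 h and 4 h minus 0 h within each vector. PRY1 lies at -2.17 and -3.00 on the left at 2 h and 4 h, PRY2 at 0.19 and 0.52, and on the right PRY2 and PRY3 lie below 0 with either vector.

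Within a library the shares of the family do not depend on scaling. The summed FPKM of the 3 genes was 594 and 777 in YOX1 vector cells at 0 h, against 792 and 792 in control vector cells. At 2 h it was 344 and 383 in YOX1 vector cells, against 529 and 554 in control vector cells, and at 4 h it was 271 and 277 in YOX1 vector cells, against 409 and 504 in control vector cells. PRY1 made up 46.4% of the sum in both YOX1 vector libraries at 0 h, against 45.8% and 48.2% in control vector cells. At 4 h its share was 12.4% and 13.3% in YOX1 vector cells, against 61.0% and 62.1% in control vector cells. PRY2 held 81.5% and 81.0% of the sum in YOX1 vector cells at 4 h, against 33.8% and 32.6% in control vector cells. The ratio of PRY2 to PRY1 FPKM at 4 h was 6.59 and 6.08 in YOX1 vector cells, against 0.555 and 0.524 in control vector cells, so that the order of the pair was opposite with the 2 vectors. PRY3 held 5.19 to 7.04% of the sum in all 12 libraries and stayed the least abundant member. PRY1 was 2.02-fold and 2.33-fold above PRY3 in YOX1 vector cells at 4 h, against 11.8-fold and 11.7-fold in control vector cells.

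**Figure D4:**
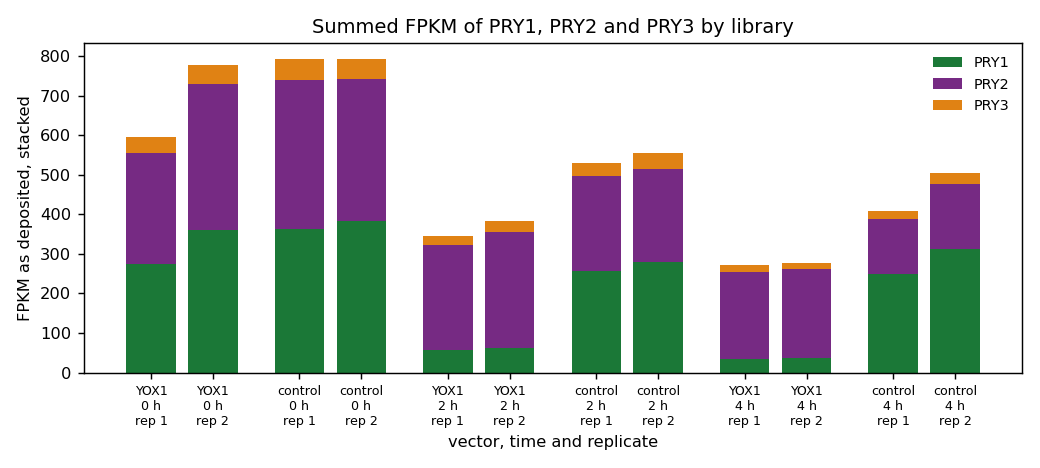
Summed FPKM of the 3 genes in each library, stacked by gene, with vector, time and replicate on the horizontal axis, YOX1 vector left of control vector at each time, and an axis that starts at 0. At 4 h the bars reach 271 and 277 FPKM with the YOX1 vector, most of it PRY2, and 409 and 504 with the control vector, most of it PRY1.

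The genes beside the members had far smaller differences between the vectors than PRY1. SCP160, the next gene on the far side of PRY1, had a log2 difference between the vectors of -0.14 ± 0.04 at 2 h (limma, adjusted p = 0.239) and -0.31 ± 0.04 at 4 h (adjusted p = 0.00534). YJL077W-B, a short open reading frame on the far side of PRY3, had -0.06 ± 0.40 at 2 h and 0.32 ± 0.40 at 4 h, neither called. YKR011C and YPT52, which flank PRY2, had 0.01 ± 0.08 and 0.04 ± 0.05 at 2 h, and both had -0.05 at 4 h, none of them called.

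Likeness of pattern was measured as Pearson's r of log2(scaled FPKM + 1) over the 12 libraries among 6106 genes that averaged 10 FPKM or more, as a description in which the libraries fall into 6 groups. PRY1 was most like MSN4, a stress-response transcription factor gene, at r = 0.991, and MCM6 and MCM4, which encode subunits of the replicative helicase, at 0.989 in each case. MCM4 had a log2 difference between the vectors of -1.33 at 2 h and -1.74 at 4 h, MCM6 of -0.90 and -1.24, and MSN4 of -0.65 and -1.03, each smaller in size than the difference of PRY1. PRY2 was most like YAP1801, an endocytic adaptor gene, at r = 0.978, RDL2, a mitochondrial thiosulfate sulfurtransferase gene, at 0.977, and MCK1, a protein kinase gene, at 0.975. PRY3 was most like ADE16, of purine synthesis, at 0.977, SYP1, an endocytic protein of the bud neck, at 0.968, and ARO4, of aromatic amino acid synthesis, at 0.968. Between members r was 0.84 for PRY1 and PRY3, 0.64 for PRY2 and PRY3 and 0.15 for PRY1 and PRY2.

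Other genes that handle sterols were set beside the members. Of 27 genes of sterol acetylation, esterification, transport and uptake, 0 were called in either direction at 2 h (adjusted p, limma), where 1.68% of all genes were called lower and 0.261% higher. Before adjustment, 1 of the 27 was lower and 2 were higher at 2 h at p under 0.05, against 802 of all 6887 genes in either direction. At 4 h KES1, an oxysterol-binding homolog, was called at -0.35 ± 0.06 and TGL1, a steryl ester hydrolase gene, at 0.24 ± 0.05, where 4.31% of all genes were called lower and 1.92% higher, so that the count of 1 gene each way was near the share among all genes. Before adjustment, 3 of the 27 were lower and 4 were higher at that time, against 1409 of all 6887 genes in either direction. The median of the list was 0.00 at both times, as it was for all genes at 2 h, and 0.01 for all genes at 4 h. ATF2 and SAY1 were looked at for their role on the sterols that Pry proteins export, after the values had been seen. ATF2, which overlaps another listed gene, had 13.8 and 11.8 FPKM in YOX1 vector cells at 4 h, against 16.2 and 17.0 in control vector cells, a log2 difference of -0.40 ± 0.10 that was not called (adjusted p = 0.0663). SAY1 had 19.1 and 20.9 FPKM in YOX1 vector cells at 4 h, against 17.0 and 15.7 in control vector cells, a log2 difference of 0.24 ± 0.07 that was not called either (adjusted p = 0.117).

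At 4 h minus 0 h in control vector cells, 7 of the 27 sterol genes rose and 10 fell, with a list median of -0.10, against 25.1% called higher and 26.0% called lower among all genes and a median of 0.00. ARE2, the main sterol acyltransferase gene, rose by 0.73 ± 0.07, and HES1, an oxysterol-binding homolog listed at only 0.778 to 3.18 FPKM, rose by 0.86 ± 0.29. ECM22, a sterol-responsive transcription factor gene, had -0.91 ± 0.10 and OSH2, a further oxysterol-binding homolog, had -0.73 ± 0.06, both called.

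PRY3 is also known as one of the genes that the daughter cell expresses after division, and 9 other genes of that kind were set beside it. All 9 were called lower at 4 h minus 0 h in control vector cells, where 26.0% of all genes were called lower. The list median was -2.24. The lowest values were those of DSE2, at -2.84 ± 0.11, and DSE1, at -2.80 ± 0.11, both of which encode proteins of cell separation. PRY3, at -0.96 ± 0.16, had the same direction with a smaller change than any of the 9, whose values ran from -2.84 to -1.57. Between the vectors the list went both ways. At 4 h CTS1, the chitinase gene, and DSE1 were called higher at 0.57 ± 0.09 and 0.54 ± 0.11. ASH1, a daughter-cell repressor gene, was called lower at -1.10 ± 0.05. Among all genes 1.92% were called higher and 4.31% lower at that time. The list median was 0.18, against 0.01 for all genes. The same 3 genes were called at 2 h, at 0.60, 0.64 and -0.75, where 0.261% of all genes were called higher and 1.68% lower. The part of these genes in the PRY3 values was not tested.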

How the data were processed

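The members and all gene lists were chosen with earlier results of these data known. Libraries were unstranded and depleted of ribosomal RNA, as the labels and methods state. TopHat2 placed the reads on sacCer3, and Cufflinks, Cuffmerge and Cuffdiff gave the expression estimates. The versions used for these libraries are not given in the sources used here. The authors deposited FPKM for 7126 genes per library, which are estimates and not counts, and a gene whose estimate was not completed is listed at 0. Raw reads were not used here, so depth was approximated from the deposited intervals, read as 2 SDs on either side.

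Libraries were scaled by median-ratio factors of 0.932 to 1.07, computed on the 6585 genes that no library lists at 0, and log2 was taken after adding 1, which understates changes at low FPKM. A filter on the mean (1 FPKM or more) left 6887 genes, which entered a model with 6 group means over all 12 libraries (limma 3.58.1, R 4.3.3, trend on, robust off, 6 residual and 1.81 prior degrees of freedom), since 2 libraries a group cannot set a spread on their own. Tests were two-sided, with Benjamini-Hochberg adjustment over all genes tested within a comparison and a call at an adjusted p under 0.05. Values of single libraries are deposited FPKM, while means, SDs and changes use scaled FPKM.

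Named genes were the members, YOX1, the nearest gene on each side of the members, the 3 genes most like each member, and the 2 genes with the largest change each way in each list among those called at 4 h minus 0 h in control vector cells. KES1, TGL1, ATF2, SAY1, CTS1, ASH1 and the genes of the shared motif pair were named outside this rule after their values were seen. By identifier, 6048 of the listed genes matched the R64 reference and 5994 had the same coordinates there. Sequences, protein lengths and identities came from that reference with Biopython 1.88.

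One factor, its motif and a related gene that were looked at are not reported here. Same-numbered libraries were checked for pairing. Alternatives were a pseudocount of 0.1 or 5, a minimum mean of 10 FPKM or no minimum, no scaling, the replicate number as a block, only the 4 libraries compared, and each library left out.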

Additional observations from a re-analysis of the deposited data

How the results depend on the processing

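The alternatives that kept all libraries or the compared ones gave 252 values of the members. Of these, 241 kept their direction and their side of the threshold or moved by less than the spread. The same held for 363 of 432 values of the members with 1 library left out. Many of these fits left out a library outside the comparison. There the log2 value could move only through the scaling, so the tally is a weak check. Numbers of genes called are not part of this tally. No alternative other than leaving out a library changed a direction. PRY1 at 2 h minus 0 h in control vector cells (-0.46, adjusted p = 0.0505) was called with a minimum mean of 10 FPKM (-0.46, adjusted p = 0.0468), without scaling (-0.48, adjusted p = 0.0329) and with only the 4 libraries compared (-0.46, adjusted p = 0.0101). Without scaling PRY1 at 4 h minus 0 h (-0.41) and PRY3 at 4 h minus 2 h (-0.57) in control vector cells were also called. PRY3 at 4 h minus 2 h in YOX1 vector cells was -0.58. These calls of PRY1 and PRY3 are not independent of their choice, which used the 2 h and 4 h libraries. With only the 4 libraries compared, PRY2 lost its calls at 4 h minus 2 h in control vector cells (-0.57, adjusted p = 0.0774) and at 4 h minus 0 h in YOX1 vector cells (-0.42, adjusted p = 0.138), and the number of genes called was 369 in place of 1257 at 4 h minus 2 h in control vector cells, 1858 in place of 3018 at 2 h minus 0 h in YOX1 vector cells and 287 in place of 758 at 4 h minus 2 h in YOX1 vector cells. At 0 h the vectors gave 1 called gene with a minimum mean of 10 FPKM in place of 2, and 531 genes had an unadjusted p under 0.05.

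The replicate numbers name libraries only. Deviations of same-numbered libraries correlated at -0.12 to 0.42 over 15 pairs of groups, over 0.1 in 5 of them and under 0 in 8. The highest were 0.42 for YOX1 vector 2 h with YOX1 vector 4 h and 0.41 for YOX1 vector 4 h with control vector 4 h. YOX1 vector 2 h with control vector 4 h had 0.29. The numbers were not taken as a pairing, although a link among these treated groups is not excluded. With the replicate block, PRY1 at 2 h minus 0 h (-0.46, adjusted p = 0.0142) and PRY3 at 4 h minus 2 h (-0.47, adjusted p = 0.0402) in control vector cells were called. Here too the calls of PRY1 and PRY3 are not independent of their choice. PRY3 at 4 h minus 2 h in YOX1 vector cells was -0.50, and no call of a member was lost.

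With 1 library left out, which leaves 1 library in its group and assumes that it varies as the others do, the log2 values ran as follows. In control vector cells at 2 h minus 0 h PRY1 ran from -0.51 to -0.40, PRY2 from -0.65 to -0.56 and PRY3 from -0.58 to -0.38. At 4 h minus 2 h in these cells PRY1 ran from -0.022 to 0.34, PRY2 from -0.71 to -0.43, PRY3 from -0.65 to -0.30 and the number of genes called from 572 to 1427. In YOX1 vector cells PRY2 ran from -0.40 to 0.043 at 2 h minus 0 h and from -0.64 to -0.19 at 4 h minus 0 h, and at 4 h minus 2 h PRY1 ran from -0.73 to -0.62 and the number of genes called from 265 to 877. Between the vectors the genes called at 0 h numbered 2 to 13, and at 4 h PRY1 ran from -3.18 to -2.82 and PRY3 from -0.75 to -0.39. The vector effect at 2 h minus that at 0 h ran from -2.11 to -1.67 for PRY1, 0.20 to 0.65 for PRY2 and -0.46 to -0.091 for PRY3. At 4 h minus 0 h it ran from -2.95 to -2.50 for PRY1, 0.53 to 0.98 for PRY2 and -0.49 to -0.12 for PRY3, and at 4 h minus 2 h from -1.01 to -0.65 for PRY1, 0.19 to 0.47 for PRY2 and -0.20 to 0.15 for PRY3. The cause of these shifts was not tested, and 2 libraries a group without read counts give each mean a low precision.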

Other observations

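The motif pair upstream of PRY1, TAATTA within 10 bases of the Mcm1 core consensus, was present in 16 of 6000 windows of 561 bases. The other windows were those of HIS7, MFA1, UTR2, EMP47, RGD2, DBF2, BNS1, YHR022C, BAR1, STE6, FAT3, RSA3, ISU2, HER1 and ECM23, of which 14 were tested. The set of these windows was picked by sequence after PRY1 had been seen and gets no test as a set. Calls of its single genes come from the limma model over all genes. Between the vectors the median log2 difference of the 14 genes was -0.09 at 0 h, -0.08 at 2 h and 0.01 at 4 h, against -0.01, 0.00 and 0.01 for all genes tested.

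At 2 h DBF2, which encodes a kinase of mitotic exit, was called lower at -1.76, as was UTR2, which encodes a cell wall crosslinking enzyme, at -0.82 (limma, adjusted p under 0.05), and 0 of the 14 were called higher, where 1.68% of all genes were called lower and 0.261% higher. Before adjustment, at p under 0.05, 5 of the 14 were lower and 1 was higher at 2 h, against 802 of all 6887 genes in either direction. By the same measure 4 were lower and 5 were higher at 4 h, against 1409 of all 6887 genes. At 4 h DBF2 had -2.11, MFA1, a mating pheromone gene, -1.44, BNS1 -0.69 and UTR2 -0.69, all called lower, while BAR1, the protease that degrades the opposite pheromone, was called higher at 1.19, where 4.31% of all genes were called lower and 1.92% higher. The other members of the set were not called at either time, and among them FAT3 had 0.87 at 2 h and 0.73 at 4 h. PRY1 had a lower difference than any of the 14 at both times, but it was chosen by its decrease in this comparison. The set was also defined from its sequence, so this rank says nothing about the motif pair.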
